A study of Mus musculus with 6 samples.

Results

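Transcripts of the fibroblast growth factor (FGF) family were followed in whole cerebellum of mouse pups, comparing SnoN cKO animals with wild type animals. The set was every gene in the deposited table whose symbol named a numbered FGF ligand, a receptor (Fgfr1 to Fgfr4 or Fgfrl1), a Sprouty gene (Spry1 to Spry4) or a Spred gene (Spred1 to Spred3). It held 34 genes of the 41228 listed, of which 22 were FGF genes. Of the 34, 26 passed the filter on low counts and are called expressed, and 8 did not.

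All libraries came from C57BL/6 mice aged 6 days. The SnoN cKO group, whose animals carry a conditional knockout of SnoN, had 3 libraries. The wild type group had 3 libraries. Each group had 1 library labelled female and 2 labelled male. The sources used here do not give the driver that deletes SnoN, the exons removed or the cells that lose it, so the knockout can be read only as the loss left in whole tissue. Each library has a tag of its own in the labels, and the p-values measure the spread between these libraries. In whole tissue, fewer cells of a type and less RNA per cell cannot be told apart.

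FGF ligands bind receptor tyrosine kinases together with heparan sulfate, and the activated receptor recruits Frs2, Grb2 and Sos to switch on Ras and the ERK kinases. Sprouty and Spred proteins are induced or recruited by the same pathway and hold it back. In the cerebellum, FGF8 from the isthmus sets up the territory in the embryo, FGF9 acts on the radial scaffold of Bergmann glia, and FGF14 tunes sodium channels in Purkinje and granule neurons. SnoN, encoded by Skil, is a relative of Ski that binds Smad proteins and restrains transcription downstream of TGF-beta.

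Libraries held between 12605870 and 17757711 counts, at which the floor of 3 counts corresponds to 0.176 to 0.235 CPM, the count of a gene scaled to a common library total. Skil, the targeted gene, had 76.0, 74.7 and 77.5 CPM in the SnoN cKO libraries and 89.5, 87.5 and 88.9 CPM in the wild type libraries. It was lower in each SnoN cKO library, with a log2 fold change of -0.22 (SE 0.04) and an unadjusted p of 0.000379, although the adjusted p over all genes was 0.637 (edgeR quasi-likelihood test). Sex-linked transcripts went against the labelled sex in 2 libraries. SnoN cKO 1, labelled female, had 35 counts of Xist and 1146 of Ddx3y, and SnoN cKO 2, labelled male, had 37467 counts of Xist and 0 of Ddx3y. Both libraries carry the SnoN cKO label, so an exchange of the 2 with each other would leave the genotype groups unchanged. Whether they were exchanged was not shown, and Skil was the only check of genotype here. For a number of genes the value without both libraries is also given, a choice made after seeing the data. This leaves SnoN cKO 3 against 3 wild type libraries, with no spread within SnoN cKO. SnoN cKO 2 also stood apart in choroid plexus genes, whose 10 listed genes summed to 198 CPM there and to between 2140.2 and 3959 CPM in the other 5 libraries. The defining choroid gene Ttr was at 17.3 CPM in SnoN cKO 2 and at 1641 CPM or more elsewhere. Cerebellar markers were present, all 10 listed genes of granule precursors and all 10 of Purkinje cells passing the filter.

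The promoter of Fgf18 is shown because Fgf18 had the most negative log2 fold change of the set and because SnoN acts through Smad proteins, whose minimal binding box is CAGAC. It is taken from RefSeq on GRCm38.p6 at chr11:33147351-33147650, minus strand, from 250 bases before the start of the gene to 50 after it, 5′ to 3′. Capitals mark the minimal Smad boxes found on either strand.

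Fgf18 promoter: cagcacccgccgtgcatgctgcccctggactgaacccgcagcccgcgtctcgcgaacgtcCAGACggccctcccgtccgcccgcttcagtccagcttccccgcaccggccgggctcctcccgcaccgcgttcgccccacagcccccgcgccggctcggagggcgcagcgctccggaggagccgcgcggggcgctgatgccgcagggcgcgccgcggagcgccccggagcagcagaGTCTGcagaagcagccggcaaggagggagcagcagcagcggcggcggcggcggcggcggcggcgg

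This window held 2 minimal Smad boxes. RefSeq promoters were matched for 25 of the 34 genes, in 32 windows. CAGAC, read on both strands, was present in 11 of those 32 windows, against 49.6% of all 32851 promoters of the same length. The GC-rich Smad box GGCGCC, a palindrome, was present in 9 of the 32, against 11.9% of all promoters. Its holders were Fgf2, Fgf4, Fgf12, Fgfr3, Fgfrl1, Spred1 and Spred2. The palindromic Smad box GTCTAGAC was in 0 of the 32 windows and in 0.213% of all promoters. The ETS site CCGGAAGT, read on both strands, was in the Fgfrl1 promoter alone, against 3.89% of all promoters. A match of letters is a description and not a binding site.

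No gene of the family passed the threshold for genotype. At an adjusted p under 0.05 by the edgeR quasi-likelihood test, 0 of the 26 expressed genes and 0 of all 15457 genes tested were called, a background of 0%. DESeq2 and limma-voom also called 0 of the 26. At an unadjusted p under 0.05 there were 3 of the 26, or 11.5%, against a background of 7.68% of all genes. These were Fgf15, Fgf18 and Fgf13, each lower in SnoN cKO, the direction taken by 4.47% of all genes at that level. Log2 fold changes were positive for 12 genes and negative for 14, with a median of -0.03 beside -0.0023 over all genes tested. The CPM of SnoN cKO and wild type libraries did not overlap in 6 of the 26 genes, or 23.1%, against 13.7% of all genes. Fgf10, Fgf13, Fgf15, Fgf18 and Spry3 were lower in every SnoN cKO library, for which the background was 6.73%. Fgf5 was higher in every SnoN cKO library, for which the background was 6.95%, but with libraries scaled by their totals alone its groups overlapped.

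**Figure D1:**
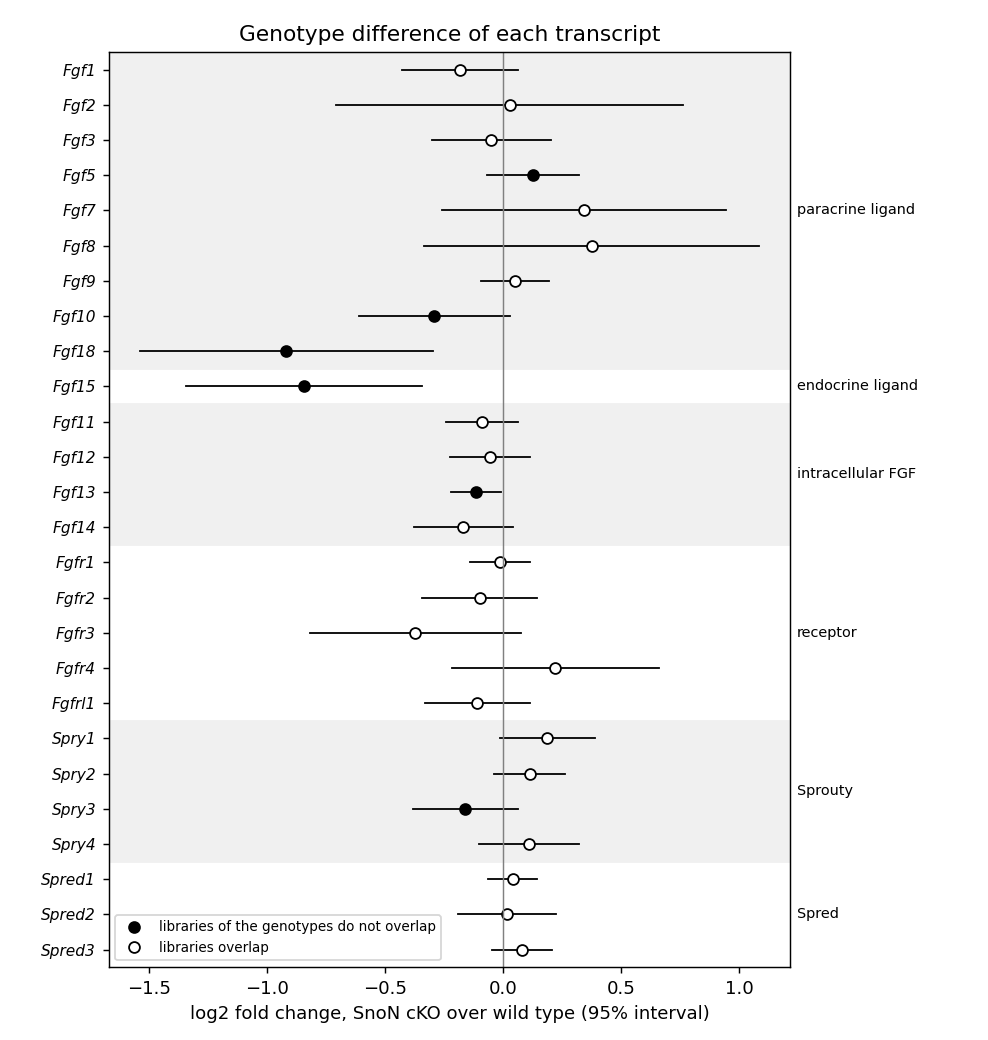
Log2 fold change of SnoN cKO over wild type for the 26 expressed genes of the family, grouped by role, with 95% intervals from the quasi-likelihood fit; filled points mark the 6 genes whose groups do not overlap. Fgf18 at -0.92, Fgf15 at -0.84 and Fgf13 at -0.11 are the 3 genes whose interval lies below 0, and none passed the adjusted threshold.

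Among the 15 secreted ligands that act locally, 9 were expressed, 5 with a positive and 4 with a negative log2 fold change. Fgf9 was the most abundant per length after Fgf5. Fgf9, a ligand known to act on Bergmann glia, had 28.6, 30.9 and 29.1 CPM in SnoN cKO libraries and 29.6, 28.9 and 27.1 CPM in wild type libraries. Its level per kilobase of exon was 6.35 CPM in SnoN cKO and 6.14 CPM in wild type. The groups overlapped, and the log2 fold change was 0.05 (SE 0.06), with a 95% interval of -0.09 to 0.19.

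Fgf5, known as a regulator of the hair cycle, had 18.6, 20.4 and 17.7 CPM in SnoN cKO libraries and 17.2, 17.4 and 17.2 CPM in wild type libraries. Every SnoN cKO library lay above every wild type library, with SnoN cKO 2 the highest. On the log2 scale the difference was 0.13 (SE 0.09; unadjusted p = 0.174, adjusted p = 0.711), and without SnoN cKO 2 it was 0.0656. Per kilobase Fgf5 reached 7.55 CPM in SnoN cKO and 6.91 CPM in wild type, the highest of the locally acting ligands.

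Fgf18 belongs with Fgf8 and Fgf17 to the subfamily whose members pattern the isthmus and other organising centres. It had 1.72, 1.02 and 1.64 CPM in SnoN cKO libraries, from 22, 15 and 28 counts, and 2.74, 3.45 and 2.03 CPM in wild type libraries, from 35, 52 and 26 counts. All 3 SnoN cKO libraries were below all 3 wild type libraries, SnoN cKO 2 being the lowest. Fgf18 averaged 1.46 ± 0.388 CPM in SnoN cKO and 2.74 ± 0.714 CPM in wild type (SD, n = 3 each). This was a log2 fold change of -0.92 (SE 0.28), with a 95% interval of -1.54 to -0.30, an unadjusted p of 0.00822 and an adjusted p of 0.637 by edgeR. It ranked 151st by p among 15457 genes. Without SnoN cKO 1 and SnoN cKO 2 the log2 fold change was -0.75.

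Fgf8 and Fgf17 showed no such separation. Fgf8, the isthmic organiser signal, had 1.88, 1.08 and 1.47 CPM in SnoN cKO libraries and 0.782, 1.46 and 1.09 CPM in wild type libraries. The groups overlapped, with a log2 fold change of 0.38 (SE 0.32). Fgf17 was not expressed, with 1, 4 and 6 counts in SnoN cKO libraries and 6, 1 and 3 counts in wild type libraries.

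Markers of neighbouring tissue were summed in each library. Of 14 genes listed for brainstem, midbrain and isthmus, 7 passed the filter. The summed level of the 14 was 8.93, 4.74 and 12.8 CPM in SnoN cKO libraries and 18.2, 23.1 and 12.2 CPM in wild type libraries. SnoN cKO 2 was lowest and wild type 2 highest in both this sum and Fgf18. The groups overlapped in the sum, where SnoN cKO 3 lay just above wild type 3. SnoN cKO 1 lay below SnoN cKO 3 in the sum but above it in Fgf18. The 10 genes listed for cerebellar nuclei and unipolar brush cells all passed, and summed to 286 to 364 CPM in SnoN cKO and 394 to 417 CPM in wild type. Sums for Bergmann glia and astrocytes, and for endothelium and pericytes, were higher in every SnoN cKO library, but their scores overlapped. The score is the mean log2 CPM deviation, in which each gene counts alike. Glial scores were 0.007 to 0.026 in SnoN cKO and -0.029 to 0.014 in wild type. Endothelial scores were -0.013 to 0.022 in SnoN cKO and -0.038 to 0.022 in wild type. The glial sums were 4374 to 4683 CPM in SnoN cKO and 4191 to 4251 CPM in wild type. The endothelial sums were 712 to 728 CPM in SnoN cKO and 682 to 710 CPM in wild type. Sums of the other marker lists overlapped. The part of any of these cells in the Fgf18 difference was not tested.

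Fgf10, a ligand of lung and limb budding that signals through the epithelial form of Fgfr2, had 5.87, 5.96 and 5.63 CPM in SnoN cKO libraries and 6.18, 6.77 and 8.42 CPM in wild type libraries. The groups did not overlap, and wild type 3 stood above the other 5 libraries. Its log2 fold change was -0.29 (SE 0.14; unadjusted p = 0.0699), and without wild type 3 it was -0.16 (unadjusted p = 0.275). Fgf7 and Fgf3 bind the same receptor form. Fgf7 had 3.21, 1.69 and 2.29 CPM in SnoN cKO libraries and 1.56, 1.86 and 2.18 CPM in wild type libraries, overlapping. Fgf3, best known from inner ear development, had 7.83, 7.92 and 7.45 CPM in SnoN cKO libraries and 7.51, 8.63 and 7.79 CPM in wild type libraries. Its groups overlapped fully, with a log2 fold change of -0.05 (SE 0.11).

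Fgf1 and Fgf2, the broadly acting ligands released without a signal peptide, were also present. Fgf1 had 12.8, 14.6 and 15.9 CPM in SnoN cKO libraries and 17.4, 14.8 and 17.2 CPM in wild type libraries. SnoN cKO 3 lay above wild type 2, so the groups overlapped (log2 fold change -0.18, SE 0.11, unadjusted p = 0.13). Without SnoN cKO 1 it was -0.11, and without SnoN cKO 1 and SnoN cKO 2 it was -0.05. Fgf2 passed the filter only narrowly, with 15, 18 and 18 counts in SnoN cKO libraries and 13, 24 and 9 counts in wild type libraries. Its mean was 1.15 ± 0.0841 CPM in SnoN cKO and 1.10 ± 0.453 CPM in wild type (SD, n = 3 each), and a difference could be placed no closer than -0.71 to 0.76 on the log2 scale. Fgf2 shares 9.44% of its exon bases with the antisense gene Nudt6, and the library kit does not keep strand.

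The 6 locally acting ligands that were not expressed were Fgf4, Fgf6, Fgf16, Fgf17, Fgf20 and Fgf22. Fgf6 had 0 counts in all 6 libraries, and the others had at most 7 counts in any library. At this depth a count of 0 allows up to the floor of 3 counts, so low expression in few cells was not detectable. The filter asked for about 0.727 CPM in enough libraries, and Fgf2 and Fgf8 were the nearest genes above it. No member passed it through libraries of 1 genotype only.

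Of the 3 endocrine ligands, which travel in blood and need a Klotho protein as coreceptor, only Fgf15 was expressed. Fgf15 is made by the ileum to restrain bile acid synthesis in liver, and it is also made in the embryonic neural tube. It had 2.82, 3.32 and 2.11 CPM in SnoN cKO libraries, from 36, 49 and 36 counts, and 3.68, 5.51 and 5.46 CPM in wild type libraries, from 47, 83 and 70 counts. Every SnoN cKO library was below every wild type library, with SnoN cKO 2 and wild type 1 the closest. Fgf15 averaged 2.75 ± 0.605 CPM in SnoN cKO and 4.88 ± 1.04 CPM in wild type (SD, n = 3 each). The fold was 0.558, with a 95% interval of 0.395 to 0.789. Its log2 fold change was -0.84 (SE 0.22), with the smallest unadjusted p of the family at 0.00377, rank 59 of 15457, and an adjusted p of 0.637. Without SnoN cKO 1 and SnoN cKO 2 it was -1.21. The same cerebellar nucleus and unipolar brush cell sums given beside Fgf18 were lower in every SnoN cKO library, and the brainstem sums overlapped. Wild type 1, the wild type library lowest in Fgf15, had 416 CPM in the nuclear sum, and wild type 3 had 394 CPM. The part of these cells in the Fgf15 difference was not tested.

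Fgf15 lies beside Fgf4 in RefSeq gene order, and Fgf3 is the next gene beyond Fgf4. Fgf4 had at most 1 count, and Fgf3 was at 7.73 ± 0.25 CPM in SnoN cKO and 7.98 ± 0.584 CPM in wild type (SD, n = 3 each). The antisense gene Gm26793 covers 24.9% of the exon bases of Fgf15 in GENCODE M21. It had 20, 42 and 31 counts in SnoN cKO libraries and 31, 35 and 17 counts in wild type libraries, with a log2 fold change of 0.03 (SE 0.30). Reads from the shared bases cannot be told apart.

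The remaining endocrine ligands were under the filter. Fgf23, the phosphate hormone of bone, was the closest gene below it, with 8, 5 and 9 counts in SnoN cKO libraries and 8, 13 and 11 counts in wild type libraries. Its mean was 0.498 ± 0.146 CPM in SnoN cKO and 0.782 ± 0.135 CPM in wild type (SD, n = 3 each), and it was not tested. Fgf21, the fasting hormone of liver, had 2 counts in SnoN cKO 3 and 0 in every other library. Klb, the coreceptor for Fgf15 and Fgf21, was likewise under the filter.

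**Figure D2:**
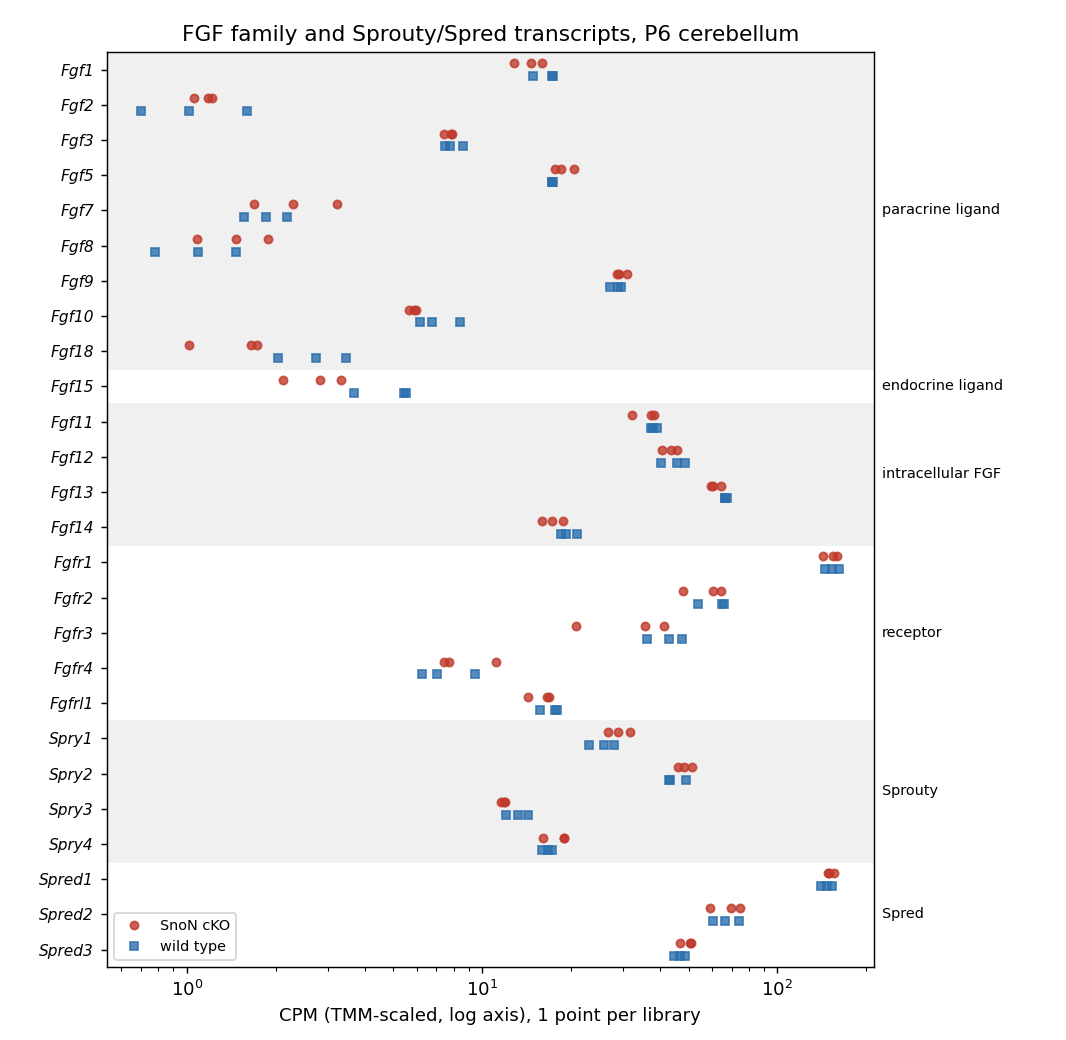
CPM of the 26 expressed genes on a logarithmic axis, 1 point per library, SnoN cKO (circles) above wild type (squares) in each row, genes grouped by role. The 3 SnoN cKO libraries of Fgf15 lie between 2.11 and 3.32 CPM, below the wild type range of 3.68 to 5.51 CPM, whereas for Fgfr1 the groups overlap.

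The intracellular FGFs, Fgf11 to Fgf14, are not secreted. They bind the tails of voltage-gated sodium channels and set channel availability and placement at the axon initial segment. All 4 were expressed, all 4 log2 fold changes were negative, and their median was -0.10. Under library totals alone and under the DESeq2-style size factors all 4 were also negative, but without wild type 2 the value of Fgf12 turned to 0.01.

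Fgf13, a partner of sodium channels and microtubules, was the highest of the 4 and of all FGF genes per length, at 15.3 CPM per kilobase in SnoN cKO and 16.6 in wild type. It had 59.8, 60.7 and 64.4 CPM in SnoN cKO libraries and 66.2, 66.4 and 67.7 CPM in wild type libraries. The groups did not overlap, and their means were 61.6 ± 2.45 CPM in SnoN cKO and 66.8 ± 0.83 CPM in wild type (SD, n = 3 each). The log2 fold change was -0.11 (SE 0.05), with a 95% interval of -0.22 to -0.01, an unadjusted p of 0.0347 and an adjusted p of 0.637 by edgeR. Without SnoN cKO 1 and SnoN cKO 2 it was -0.05.

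Fgf14, whose loss gives ataxia in mice and people, had 17.2, 16.0 and 18.8 CPM in SnoN cKO libraries and 20.9, 19.2 and 18.5 CPM in wild type libraries. SnoN cKO 3 reached the wild type range (log2 fold change -0.17, SE 0.09, unadjusted p = 0.103). Without SnoN cKO 2 it was -0.11, and without SnoN cKO 1 and SnoN cKO 2 it was -0.05. Fgf11 had 37.2, 32.1 and 38.2 CPM in SnoN cKO libraries and 37.4, 39.1 and 37.9 CPM in wild type libraries. Only SnoN cKO 2 stood low. Fgf12 had 43.7, 40.7 and 45.6 CPM in SnoN cKO libraries and 45.8, 48.8 and 40.5 CPM in wild type libraries, with full overlap. Per kilobase, Fgf13 made up 40.1% of the summed level of the 4 in SnoN cKO and 40.5% in wild type, and Fgf11 30.7% in SnoN cKO and 30.5% in wild type. These shares were close between genotypes, and the summed level was 38.2 ± 2.20 CPM per kilobase in SnoN cKO and 41.1 ± 0.793 in wild type (SD, n = 3 each).

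The channel subunits that these proteins bind were listed with the JNK scaffold Mapk8ip2. Of 10 names, 9 were tested, since Scn2a1, an older symbol of Scn2a, has no entry of its own. All 9 log2 fold changes were negative, their median was -0.19 beside -0.0023 over all genes, 0 were called, and 3 did not overlap between genotypes, against 13.7% of all genes. The median was -0.09 without SnoN cKO 2, -0.11 without wild type 2 and -0.09 without SnoN cKO 1 and SnoN cKO 2. Scn4b, an auxiliary subunit of resurgent sodium current, had 2.19, 1.62 and 2.93 CPM in SnoN cKO libraries and 4.30, 4.32 and 4.29 CPM in wild type libraries. The groups were apart and SnoN cKO 2 was lowest (log2 fold change -0.92, SE 0.22, unadjusted p = 0.0017, adjusted p = 0.637). Without SnoN cKO 1 and SnoN cKO 2 it was -0.55. Scn3b, another auxiliary subunit, averaged 90.5 ± 4.73 CPM in SnoN cKO and 105 ± 7.32 CPM in wild type (SD, n = 3 each), without overlap. On the log2 scale Scn2b differed by -0.25 (SE 0.12), and Scn2a, a pore subunit, by -0.19 (SE 0.09). Without SnoN cKO 2 these were -0.11 and -0.09. The same nuclear and unipolar brush cell sum given beside Fgf18 was lower in every SnoN cKO library, and the brainstem sum overlapped. The part of these cells in this list was not tested.

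The receptors were all expressed, 4 with a negative and 1 with a positive log2 fold change, and none was apart between genotypes. Fgfr1, the main receptor of neurons and progenitors, was the highest per length, with 159, 154.5 and 142 CPM in SnoN cKO libraries and 144.6, 153.6 and 162 CPM in wild type libraries. The ranges coincided. The log2 fold change was -0.01 (SE 0.06), with a 95% interval of -0.14 to 0.11. Per kilobase Fgfr1 gave 55.1% ± 4.17 of the summed level of Fgfr1 to Fgfr4 in SnoN cKO and 52.6% ± 2.94 in wild type (SD, n = 3 each).

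Fgfr3, a receptor of astrocytes and their precursors, varied more among the SnoN cKO libraries than any other receptor. It had 35.6, 20.8 and 41.4 CPM in SnoN cKO libraries and 43.0, 47.6 and 36.1 CPM in wild type libraries. SnoN cKO 2 was far below the rest, and the other SnoN cKO libraries were within or beside the wild type range. Its coefficient of variation was 32.5% in SnoN cKO and 13.7% in wild type, against 4.33% for counting alone. For Fgfr3 the log2 fold change was -0.37 (SE 0.20; unadjusted p = 0.0932). Without SnoN cKO 2 it was -0.13 (unadjusted p = 0.249) and without SnoN cKO 1 and SnoN cKO 2 it was -0.03, so the value rested on SnoN cKO 2. The antisense gene G630022F23Rik covers 13.9% of its exon bases.

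SnoN cKO 2 was also the library with few choroid plexus transcripts, and Fgfr3 and Fgfr2 were both lowest there. Fgfr2, a receptor of glia and epithelia, had 64.5, 47.85 and 60.3 CPM in SnoN cKO libraries and 65.8, 65.2 and 53.7 CPM in wild type libraries. Its log2 fold change of -0.10 (SE 0.11) turned to 0.02 without SnoN cKO 2. The 11 genes listed for Bergmann glia and astrocytes, which all passed, summed to 4374 to 4683 CPM in SnoN cKO and 4191 to 4251 CPM in wild type. In SnoN cKO 2 the sum was 4683 CPM. The scores of this list overlapped between genotypes. The oligodendrocyte lineage list, with 11 of 11 passing, summed to 1374 CPM in SnoN cKO 2 and to between 1562 and 1649 CPM in the other 5 libraries. The part of choroid plexus, astroglial and oligodendrocyte cells in these receptor values was not tested.

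Fgfr4 ran the other way in SnoN cKO 2. It had 7.44, 11.2 and 7.74 CPM in SnoN cKO libraries and 7.04, 6.24 and 9.43 CPM in wild type libraries, overlapping (log2 fold change 0.22, SE 0.20). Without SnoN cKO 2 the value was 0.01 (unadjusted p = 0.947), without wild type 2 it was 0.0978 and without wild type 3 it was 0.41. Fgfrl1, the receptor-like protein that lacks a kinase domain, had 16.8, 14.3 and 16.5 CPM in SnoN cKO libraries and 15.7, 17.9 and 17.7 CPM in wild type libraries. In SnoN cKO 2 the share of Fgfr3 in the summed receptor level was 11.1% and that of Fgfr4 was 11.97%. Over all libraries Fgfr3 made up 16.2% ± 4.77 in SnoN cKO and 19.96% ± 2.47 in wild type, and Fgfr2 made up 19.8% ± 1.97 in SnoN cKO and 20.2% ± 2.19 in wild type (SD, n = 3 each). The order of the receptors per length was Fgfr1 above Fgfr2, Fgfr3 and Fgfr4 in both genotypes, with Fgfr2 and Fgfr3 within their spread of each other.

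**Figure D3:**
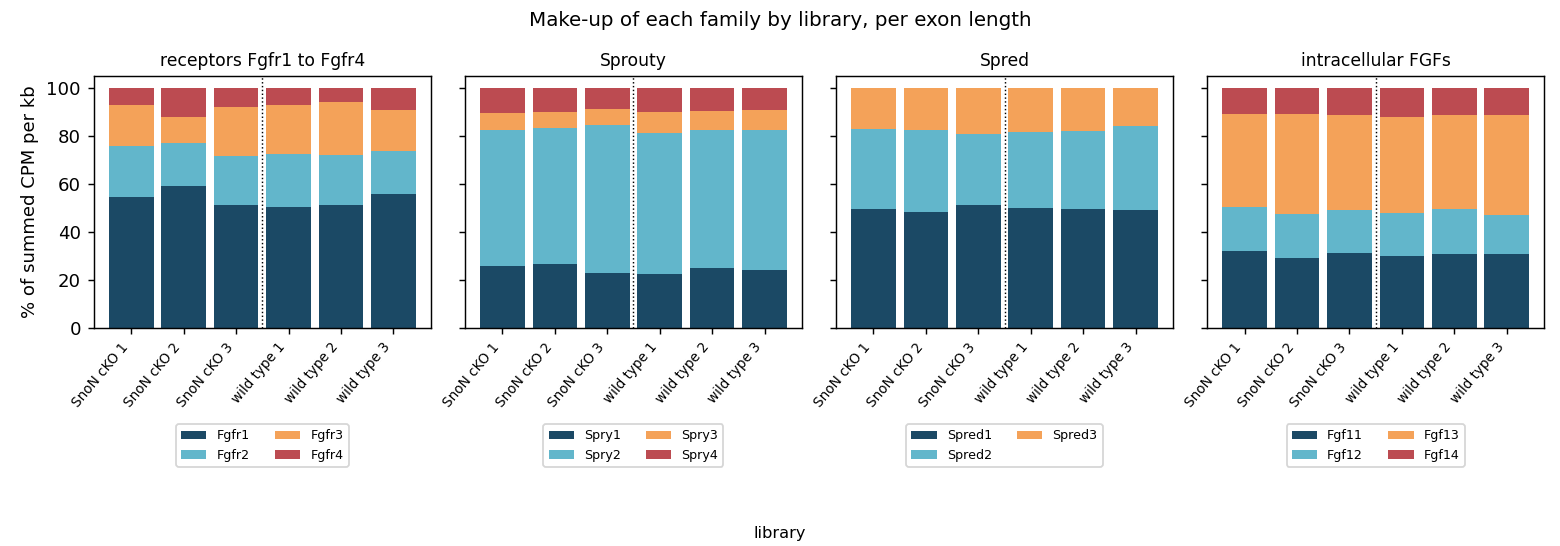
Share of each gene in the summed CPM per kilobase of its family, in percent, as stacked bars for each library with SnoN cKO left of wild type, for receptors, Sprouty, Spred and intracellular FGF genes. Fgfr1 takes between 50.5% and 59.4% of the receptor level in the 6 libraries, and SnoN cKO 2 has the smallest Fgfr3 share at 11.1%.

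Coreceptors and carriers of FGF ligands were counted as a list of 19, of which 18 were tested. Kl is also a choroid plexus gene and stands in both lists. Of the 18, 6 had a positive and 12 a negative log2 fold change, with a median of -0.07. None was called, 2 had an unadjusted p under 0.05, against 7.68% of all genes, and 3 did not overlap between genotypes, against 13.7% of all genes. These counts are near the background. The median was -0.05 without SnoN cKO 2. L1cam, a neural adhesion molecule that binds FGF receptors, averaged 269.7 ± 12.7 CPM in SnoN cKO and 298 ± 6.17 CPM in wild type (SD, n = 3 each), without overlap (log2 fold change -0.15, SE 0.05). Fgfbp3, which frees FGFs from heparan sulfate, averaged 14.3 ± 2.70 CPM in SnoN cKO and 18.6 ± 3.26 CPM in wild type (SD, n = 3 each), and its groups overlapped.

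The feedback genes were abundant. All 4 Sprouty and all 3 Spred genes were expressed, 6 of the 7 with a positive log2 fold change, and 0 were called. With libraries scaled by their totals alone Spred2 was at -0.00101, so 5 of 7 were positive there. Spry2, the leading Sprouty gene per length, had 46.1, 48.25 and 51.3 CPM in SnoN cKO libraries and 43.1, 42.9 and 49.0 CPM in wild type libraries. The groups overlapped through wild type 3, with a log2 fold change of 0.11 (SE 0.07). Spry2 made up 58.5% of the Sprouty level per kilobase in both genotypes, with an SD of 2.73 in SnoN cKO and 0.561 in wild type.

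Spry1, known in mouse as a target and inhibitor of FGF signalling, had 28.8, 31.7 and 26.7 CPM in SnoN cKO libraries and 22.9, 25.8 and 27.9 CPM in wild type libraries. SnoN cKO 3 lay below wild type 3. For Spry1 the log2 fold change was 0.19 (SE 0.09), with a 95% interval of -0.02 to 0.39, an unadjusted p of 0.0664 and an adjusted p of 0.654 by edgeR. It was 0.12 without SnoN cKO 2, 0.12 without wild type 1 and 0.0624 without SnoN cKO 1 and SnoN cKO 2. An antisense gene, Gm42922, covers 24.4% of its exon bases, so part of its reads is uncertain.

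Spry3 differed in sign from the rest of its family. It had 11.6, 11.98 and 11.85 CPM in SnoN cKO libraries and 13.2, 12.1 and 14.3 CPM in wild type libraries. The SnoN cKO libraries lay close together, all below the wild type libraries, the nearest pair being 11.98 CPM in SnoN cKO 2 and 12.1 CPM in wild type 2. For Spry3 the log2 fold change was -0.16 (SE 0.10; unadjusted p = 0.14), and without wild type 3 it was -0.0981. Its share of the Sprouty level per kilobase was 6.83% ± 0.0679 in SnoN cKO and 8.24% ± 0.424 in wild type (SD, n = 3 each). Spry4 had 18.95, 18.9 and 16.1 CPM in SnoN cKO libraries and 16.7, 15.9 and 17.3 CPM in wild type libraries, overlapping through SnoN cKO 3.

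The Spred genes encode relatives of Sprouty that bind neurofibromin and keep Ras inactive. Spred1, whose loss in people gives a condition resembling neurofibromatosis, was at 22.3 CPM per kilobase in SnoN cKO and 21.6 in wild type, close to Spry2 and above every other gene of the family. It had 149.5, 155 and 148 CPM in SnoN cKO libraries and 140.2, 147 and 153 CPM in wild type libraries. The log2 fold change of 0.04 (SE 0.05) had a 95% interval of -0.06 to 0.14, and the groups overlapped. Spred2 had 69.5, 75.0 and 58.9 CPM in SnoN cKO libraries and 60.7, 66.2 and 74.1 CPM in wild type libraries, with no order between them. Spred3 had 46.8, 50.8 and 50.6 CPM in SnoN cKO libraries and 46.95, 48.7 and 44.6 CPM in wild type libraries, overlapping through SnoN cKO 1. Spred1 took 49.6% of the Spred level per kilobase in both genotypes.

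**Figure D4:**
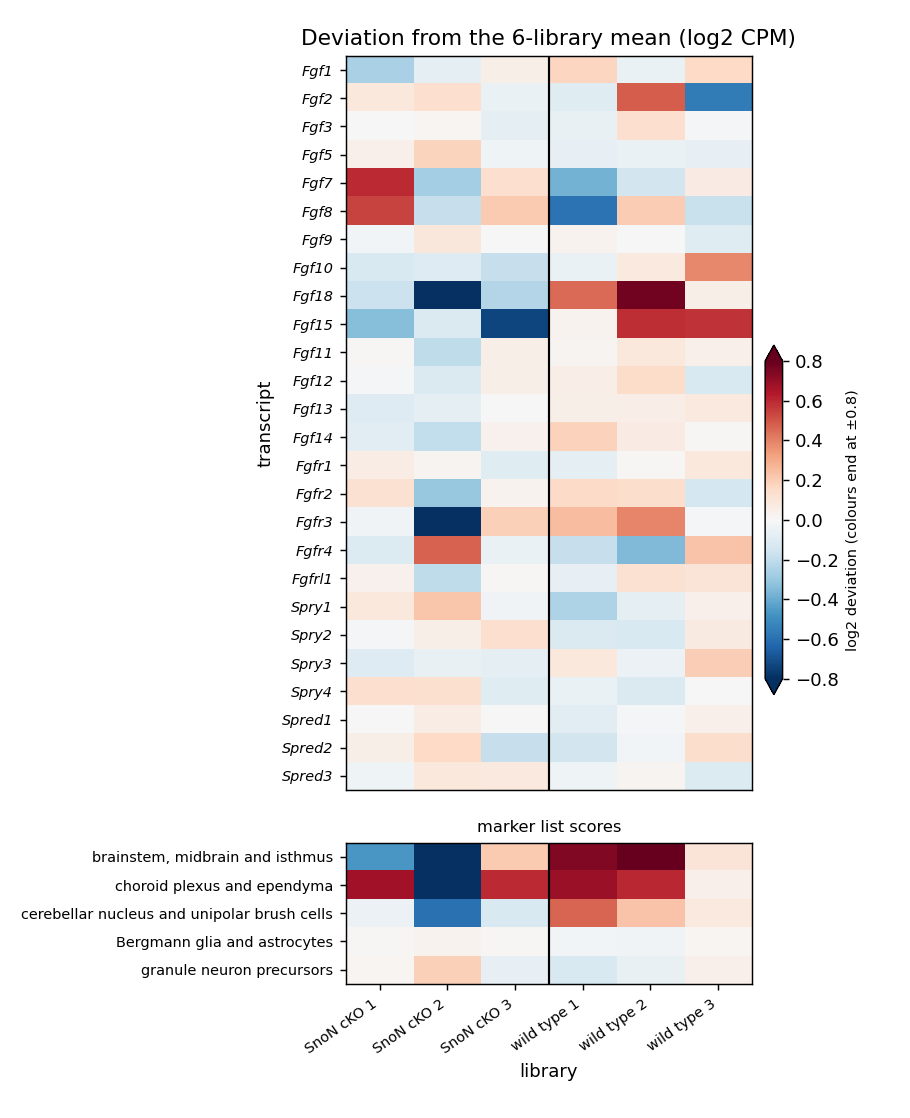
Log2 CPM of the 26 expressed genes in each library as the deviation from the mean of the 6 libraries, SnoN cKO columns left of wild type columns, genes ordered by role, with scores of 5 marker lists (mean log2 CPM deviation) below. Fgf15 and Fgf18 are lower in all 3 SnoN cKO columns than in any wild type column, and Fgfr3 is lowest in SnoN cKO 2 at 20.8 CPM, as is the choroid plexus score.

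The kinase cascade between receptor and nucleus was listed as 28 genes, all tested. Log2 fold changes were positive for 12 and negative for 16, with a median of -0.01, and 0 were called. Map2k1, a kinase that activates ERK, averaged 55.9 ± 3.20 CPM in SnoN cKO and 63.0 ± 3.01 CPM in wild type (SD, n = 3 each). Its groups did not overlap, with a log2 fold change of -0.17 (SE 0.06; unadjusted p = 0.0151, adjusted p = 0.637), and without SnoN cKO 1 and SnoN cKO 2 it was -0.0913. Map2k1 was the 1 gene of the 28 with an unadjusted p under 0.05 by edgeR, against 7.68% of all genes. Groups did not overlap in 3 of the 28, Map2k1 and Mapk3 among them, against 13.7% of all genes. Neither count exceeded the background.

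Transcripts known to respond to FGF and ERK signalling, 17 of 17 tested, split into 11 above and 6 below 0 on the log2 scale, at a median log2 fold change of 0.01. None was called. Dusp6 was the 1 gene of the 17 with an unadjusted p under 0.05 by edgeR, against 7.68% of all genes. It was also the 1 gene with groups apart, against 13.7% of all genes. Neither count exceeded the background. Dusp6, a phosphatase that inactivates ERK, had 44.0, 48.7 and 40.53 CPM in SnoN cKO libraries and 40.45, 36.7 and 38.6 CPM in wild type libraries. SnoN cKO 3 and wild type 1 were almost level. The log2 fold change was 0.20 (SE 0.07; unadjusted p = 0.0194, adjusted p = 0.637), but without SnoN cKO 2 it was 0.13 (unadjusted p = 0.0698) and without SnoN cKO 1 and SnoN cKO 2 it was 0.0714. Its relatives went in both directions, Dusp5 at 0.10 (SE 0.06) and Dusp4 at -0.16 (SE 0.09).

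The labelled sex was fitted as a factor beside genotype, male over female. It called 0 members and 1 of 15457 genes, a background of 0.00647%. The lowest unadjusted p of a member was 0.0864, for Fgfr2 at a log2 fold change of -0.20 (SE 0.10), and no member had one under 0.05. DESeq2 called 0 members as well. Because sex-linked transcripts contradicted the label in SnoN cKO 1 and SnoN cKO 2, these values describe the labels and not the sex of the animals.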

How the data were processed

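Total RNA of whole cerebellum was sequenced as single-end reads with the NEBNext Ultra kit, per the labels' protocols. The authors deposited whole-number read counts of genes as 1 table covering the 6 libraries. STAR 2.0.4b, Subread and featureCounts 1.4.5 with the mm9 build were used, per the submitters' processing notes. The gene annotation is not given in the sources used here. The column of Ensembl identifiers was out of register with the symbols. Only 97 of 41228 entries, or 0.235%, paired an identifier with its GENCODE M21 symbol, whereas all 34 descriptions in the set matched the symbol. Of olfactory receptor genes by symbol, 0% of 1038 exceeded 100 counts in sum, against 37.2% of 1026 by identifier. Genes were therefore taken by symbol, and no identifiers are given.

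After 140 repeated entries with 0.465% of the counts were removed, genes were filtered with filterByExpr at a minimum count of 10, scaled by TMM and tested for genotype in edgeR 4.0.16 under R 4.3.3. The test was the two-sided quasi-likelihood test on 3 against 3 libraries with no covariate, adjusted by Benjamini-Hochberg over 15457 genes at 0.05. It was tried on simulated counts with larger changes than any in the set, in genes with more counts than Fgf2, Fgf8 or Fgf18. That trial does not cover changes or counts as small as these. CPM used TMM-scaled totals of the tested genes. Levels per kilobase used exon lengths of GENCODE M21 on GRCm38, another build than the counts. Intervals are unadjusted at 95% and come from the fit. Permuting the labels of single genes exactly was not done, since its smallest two-sided p is 0.1. No library was a repeat of another, chi-square divided by its degrees of freedom being at least 2.79 in the 15 pairs. The common biological coefficient of variation was 9.71%. Floors cover counting error only.

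Every gene of the set is accounted for, and from each further list up to 4 genes with the smallest p were to be named, of which examples are given. Members and lists were chosen with earlier results of these data known. Alternatives were other scalings, filters, DESeq2 1.42.0, limma-voom (limma 3.58.1), the labelled sex, a replicate block and leaving out libraries.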

Additional observations from a re-analysis of the deposited data

Results flagged for a closer look

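Values far from the others were sought for the 26 expressed genes among the 4 libraries labelled male, SnoN cKO 2, SnoN cKO 3, wild type 2 and wild type 3, by Dixon's criterion at its 95% critical value of 0.829. It picked out 3 of 26 genes, where chance gives about 1 in 20. Fgf11 was low in SnoN cKO 2, at 32.1 CPM. Fgf5 was high in SnoN cKO 2, at 20.4 CPM. Spry3 was high in wild type 3, at 14.3 CPM. The sex-linked transcripts of SnoN cKO 2 go against its label, so these 4 libraries share the label and not the transcripts.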

How the results depend on the processing

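No FGF family gene was called under any alternative run. Over all genes, 39 were called with no filter on low counts (8 higher and 31 lower in SnoN cKO), 6 with DESeq2, 1 with the labelled sex as covariate and 7 without both SnoN cKO libraries whose sex markers go against the label; the last was chosen after seeing the data and leaves SnoN cKO 3, assumed to vary like the wild type libraries. Of 390 values of expressed members under alternatives, 373 had the same direction and side of the threshold, and 17 reversed, all of them uncalled. With library totals alone Spred2 was -0.00101. Without both those SnoN cKO libraries, Fgf11 was 0.000959, Fgf12 0.0163, Fgf2 -0.0885, Spred2 -0.19 and Spry4 -0.0443, and 13 members (50%) did not overlap beside 49.3% of all genes. Leaving out each replicate in turn, 0 genes were called, and the members' median lay between -0.0758 (without wild type 3) and 0.0116 (without wild type 2). Groups did not overlap in 7 to 14 members, or 26.9% to 53.8%, against 20.9% to 28.6% of all genes. Without wild type 3 there were 14 (53.8% against 28.6%), and without SnoN cKO 3 there were 12 (46.2% against 26.8%). Without SnoN cKO 1 there were 7 (26.9% against 25.3%), near the background. In those runs Fgf2 lay between -0.20 and 0.42, Spred2 between -0.0655 and 0.12, Fgf12 between -0.13 and 0.0121, Fgf3 between -0.0901 and 0.018, Fgfr1 between -0.0547 and 0.0383, Fgfr2 between -0.19 and 0.0164, Fgf15 between -1.01 and -0.66 and Fgf18 between -1.09 and -0.70. The genes called by labelled sex, 1 as reported, were 158 with no filter, 6 with DESeq2, 0 without genotype and 0 to 6 leaving out each replicate. The cause of these shifts was not tested. Same-numbered libraries deviated from their group means with correlations of -0.04, -0.32 and -0.18, and differently numbered libraries with correlations from -0.17 to 0.39. With deviations taken from means of 3 libraries, such correlations cannot show whether the numbers pair animals. With the replicate block 0 genes were called, and 2 members had an unadjusted p under 0.05 by edgeR in place of 3. Expressed members numbered 26 at a mean of 1 CPM and 25 at 10 counts in every library. Counts of 9 to 83 behind Fgf2, Fgf8, Fgf15 and Fgf18 limit what can be said of them.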
